A study of Mus musculus with 6 samples.

Results

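The genes of mitochondrial and peroxisomal fatty acid oxidation were followed in ribosome-bound mRNA of the adult mouse dentate gyrus, in samples with and without conditional deletion of Klf9. The list was fixed by gene name and holds 36 of the 37620 genes in the count files: 2 fatty acid uptake genes, 7 of the carnitine shuttle, 17 of the mitochondrial steps, 3 of electron transfer and 7 of the peroxisomal steps. Of these, 35 passed the filter on low counts, which asked for a level above 1 CPM (the counts of a gene scaled to a common library size) in at least 1 sample.

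Klf9 encodes a Kruppel-like transcription factor. Of the 6 samples, 3 came from Gli1CreERT2:Rpl22HA f/+:Klf9 +/+ mice and 3 from Gli1CreERT2:Rpl22HA f/+:Klf9 f/f mice, called Klf9 +/+ and Klf9 f/f here. All mice of both genotypes were 2 to 3 months old, carried the CreERT2 and the RiboTag allele, and received 3 tamoxifen injections 12 hr apart; tissue was taken 4 days after the last one. Each sample pooled 6 dentate gyri from 3 mice. RiboTag is an HA-tagged ribosomal protein, Rpl22, that is made only where Cre has acted, so that immunoprecipitation with an HA antibody enriches the mRNA on ribosomes of those cells. Gli1CreERT2 recombines in radial-glial neural stem cells and also in astrocytes, so the samples hold RNA of both.

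Beta-oxidation removes acetyl-CoA units from activated fatty acids. Long chains enter the mitochondrial matrix bound to carnitine, are shortened by repeated rounds of dehydrogenation, hydration, a second dehydrogenation and thiolysis, and pass their electrons to the respiratory chain through the electron transfer flavoprotein. Peroxisomes shorten very long and branched chains first. In the adult hippocampus, high fatty acid oxidation has been linked to quiescence of neural stem cells, and it is known in astrocytes. The study proposes instead that neural stem cells depend on it when they expand by symmetric self-renewal.

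Counts on genes ranged from 27594529 to 58864965 in the Klf9 +/+ samples and from 21594714 to 66343759 in the Klf9 f/f samples. The library names divide the samples into 2 series. Replicates 1 and 2 of each genotype belong to series 1, and replicate 3 of each genotype forms series 2, which has 1 sample a genotype. Reads that the counting program HTSeq assigned to no annotated feature made up 10.9 to 12.2% in series 2 and 6.33 to 7.66% in series 1. Klf9 itself measured 200.7, 203.7 and 138.9 CPM in Klf9 +/+ replicates 1 to 3, against 114.1, 121.2 and 119.9 CPM in the Klf9 f/f samples, with every Klf9 f/f sample below every Klf9 +/+ sample. Its log2 fold change was -0.59 (SE 0.15, unadjusted p = 0.0032 and adjusted p = 0.844, edgeR quasi-likelihood test with Benjamini-Hochberg adjustment). The count covers the whole gene, while the deleted part is exon 1.

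Across the list, 32 of the 35 tested genes had a positive log2 fold change of Klf9 f/f over Klf9 +/+ and 3 a negative one (Crat, Etfa and Slc22a5), beside 50.2% of all 15056 genes tested with a positive one. The differences were small: the median was 0.14 and the range -0.03 to 0.61, with standard errors of 0.12 to 0.29, and the median over all genes was 0.000835. At the study's threshold, at least 1.2-fold with an unadjusted p under 0.05, 3 members were called higher in Klf9 f/f (Slc27a1, Cpt2 and Acad11), beside 1.82% of all genes, and 0 were called lower, beside 2.5% of all genes. In edgeR's quasi-likelihood test no member and no other gene passed an adjusted p of 0.05 (0% of all genes, against 650 at an unadjusted p under 0.05), and the adjusted p of every tested member was 1.00. Over all genes, 13 were higher and 45 lower at that adjusted p in edgeR's likelihood-ratio test, 7 and 32 in DESeq2, and 56 and 278 with no filter on low counts, with 0 members among them. A further 5 members reached 1.2-fold with a p above 0.05, and 18 had a log2 fold change smaller than its standard error.

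The difference was positive in both library series for 26 of the 35 members, beside 29.3% of all genes. The 95% interval included 0 for 32 of the 35 members, lay below a 2-fold rise for 34 and below a 1.5-fold rise for 25, and lay above a 1.5-fold fall for all 35. Within both library series, every Klf9 f/f sample stood above every Klf9 +/+ sample for 11 members, beside 7.78% of all genes, and below for 0, beside 5.53% of all genes. Over all 6 samples without regard to series, Klf9 f/f stood above Klf9 +/+ for Cpt2, Acadl and Decr2, beside 2.03% of all genes, and below it for 0, beside 1.35% of all genes. For those 3 genes the separation itself fixes the two-sided exact permutation p at 0.1, the smallest that 3 against 3 samples allow. The p therefore adds nothing to it.

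**Figure D1:**
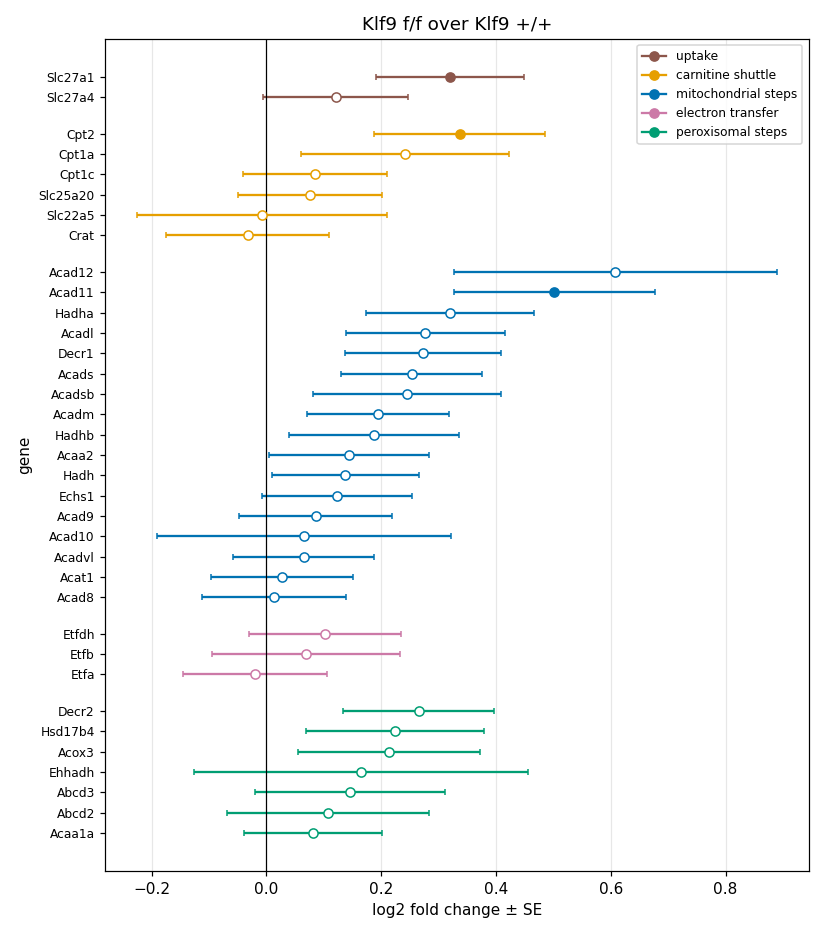
Log2 fold change of Klf9 f/f over Klf9 +/+ (x axis) for each of the 35 tested genes (y axis), with bars of 1 SE, grouped and coloured by role; filled points mark genes at 1.2-fold or more with an unadjusted p under 0.05. The filled points are Slc27a1, Cpt2 and Acad11, and 32 of 35 points lie right of 0.

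The 2 Klf9 f/f samples of series 1 did not stand equally high. Klf9 f/f replicate 1 exceeded both Klf9 +/+ samples of its series for 26 of 35 members and Klf9 f/f replicate 2 for 18, and replicate 1 was above replicate 2 for 25. In series 2 the Klf9 f/f sample exceeded the Klf9 +/+ sample for 30. The number of called members moved with the samples used. It was 8 without Klf9 f/f replicate 2 (beside 3.28% of all genes called higher in the same fit), 2 without Klf9 +/+ replicate 1 (2.26%) and 0 without Klf9 +/+ replicate 2 (1.24%). It was 1 without Klf9 f/f replicate 1 (0.866%). It was also 1 without Klf9 f/f replicate 3 (1.22%) and without Klf9 +/+ replicate 3 (1.19%), which both leave the genotype comparison to series 1 alone. The share over all genes thus moved as well. In each case the median log2 fold change stayed between 0.11 and 0.19.

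Some lists of cell type markers also differed between the genotypes. All 14 astrocyte markers had a positive log2 fold change (median 0.35), and 4 were called, beside 1.82% of all genes called higher. Their summed level was 10225 to 12738 CPM in Klf9 +/+ and 11668 to 17033 CPM in Klf9 f/f. All 10 choroid plexus markers were called lower, beside 2.5% of all genes, with sums of 246 to 4044 CPM in Klf9 +/+ and 100.6 to 757 CPM in Klf9 f/f. Of these markers, 5 separated by genotype within both series and 0 over all 6 samples. Ttr measured 109, 655 and 2271 CPM in Klf9 +/+ and 4.57, 7.07 and 342 CPM in Klf9 f/f. The 11 endothelial and mural markers were all lower, 5 of them called, beside 2.5% of all genes. All 8 meninges markers were lower too (median -0.39), and 1 was called, beside 2.5% of all genes. Their sums were 915 to 1888 CPM in Klf9 +/+ and 612 to 1162 CPM in Klf9 f/f. Radial glia markers had a median of 0.15 with 0 of 11 called, and their sums were 2633 to 4522 CPM in Klf9 +/+ and 3307 to 4105 CPM in Klf9 f/f. Granule neuron markers had a median of -0.11 with 0 of 10 called. Oligodendrocyte lineage markers had a median of 0.05, with 5 positive, 5 negative and 2 of 10 called higher, beside 1.82% of all genes. Microglia markers had a median of 0.07, with 8 positive, 2 negative and 0 of 10 called. No astrocyte, choroid plexus or endothelial and mural marker was at 0 in any sample, but some choroid plexus markers came near it. Slc4a5 was at 0.04 CPM in Klf9 +/+ replicate 1, where 3 counts make 0.0606 CPM. In Klf9 f/f replicate 1 it was at 0.046 CPM. With the mean log2 CPM of the astrocyte markers added to the fit, 26 of 35 members were positive, and several members changed sign in either direction. Their median was 0.0823, beside 0.0176 over all genes, and 0 were called, beside 0.89% of all genes called higher. With the choroid plexus markers added instead, 29 were positive with a median of 0.178, beside 0.0363 over all genes. In that fit 1 member, Abcd2, was called, beside 2.32% of all genes called higher. Both sets of markers themselves differed between the genotypes. Such fits, here and for single genes below, therefore also take out genotype differences that members share with the markers. What the cell mixture contributes was not tested. In such bulk samples, fewer cells of a type and less RNA per cell cannot be told apart.

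**Figure D2:**
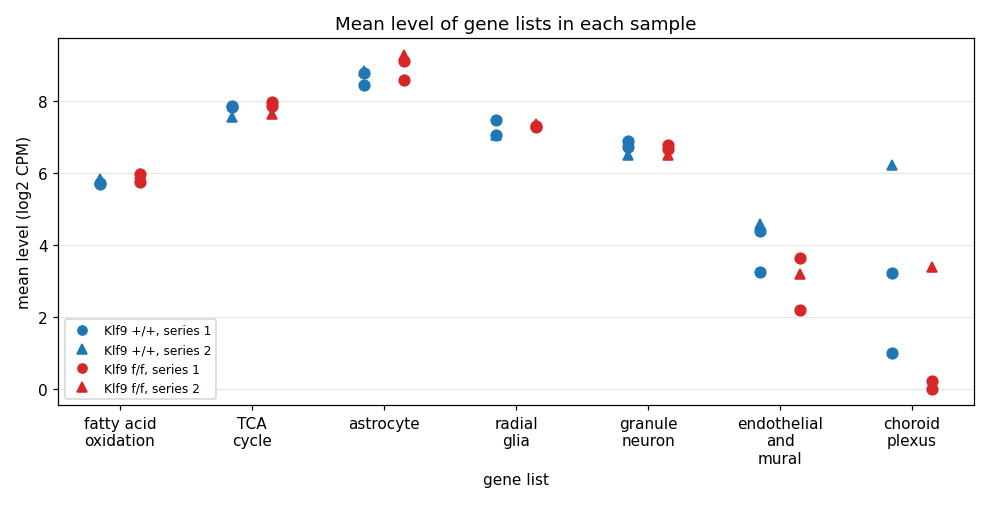
Mean log2 CPM (y axis) of each gene list (x axis) in each sample, blue for Klf9 +/+ and red for Klf9 f/f, circles for library series 1 and triangles for series 2. The fatty acid oxidation genes average 5.71, 5.74 and 5.83 in Klf9 +/+ and 5.99, 5.76 and 5.97 in Klf9 f/f, while the choroid plexus markers spread over a far wider range.

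The genes of the list spanned a wide range of levels, compared here per kilobase of annotated exon (RPKM, from counts after TMM scaling). The median over the members in Klf9 +/+ was 18.2 RPKM. By role it was 139 for electron transfer, 54.4 for uptake, 20.7 for the mitochondrial steps, 17.0 for the peroxisomal steps and 16.9 for the carnitine shuttle. Etfb led at 200.2 ± 78.7 RPKM (SD, n = 3), followed by Etfa at 139 ± 29.1 RPKM, Slc27a1 at 100.4 ± 10.4 RPKM, Acat1 at 94.7 ± 19.9 RPKM, Acadl at 81.3 ± 8.13 RPKM and Acaa2 at 78.4 ± 7.76 RPKM. In the order of all 36, the ranges of neighbouring genes over the 3 Klf9 +/+ samples overlapped in 29 of 35 pairs. Such ranges ignore that both genes were measured in the same samples. Among overlapping pairs, Etfb was above Etfa in all 3 samples, and Slc27a1 was above Acat1 in 1 of 3. At the low end stood Acox3 at 1.49 ± 0.216 RPKM, Ehhadh at 1.33 ± 0.569 RPKM, Acad12 at 1.07 ± 0.262 RPKM, Acad10 at 0.72 ± 0.0653 RPKM and Cpt1b. With the length of the longest transcript in place of all exons, Acox3 was at 3.88 and Acad12 at 2.25 RPKM.

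**Figure D3:**
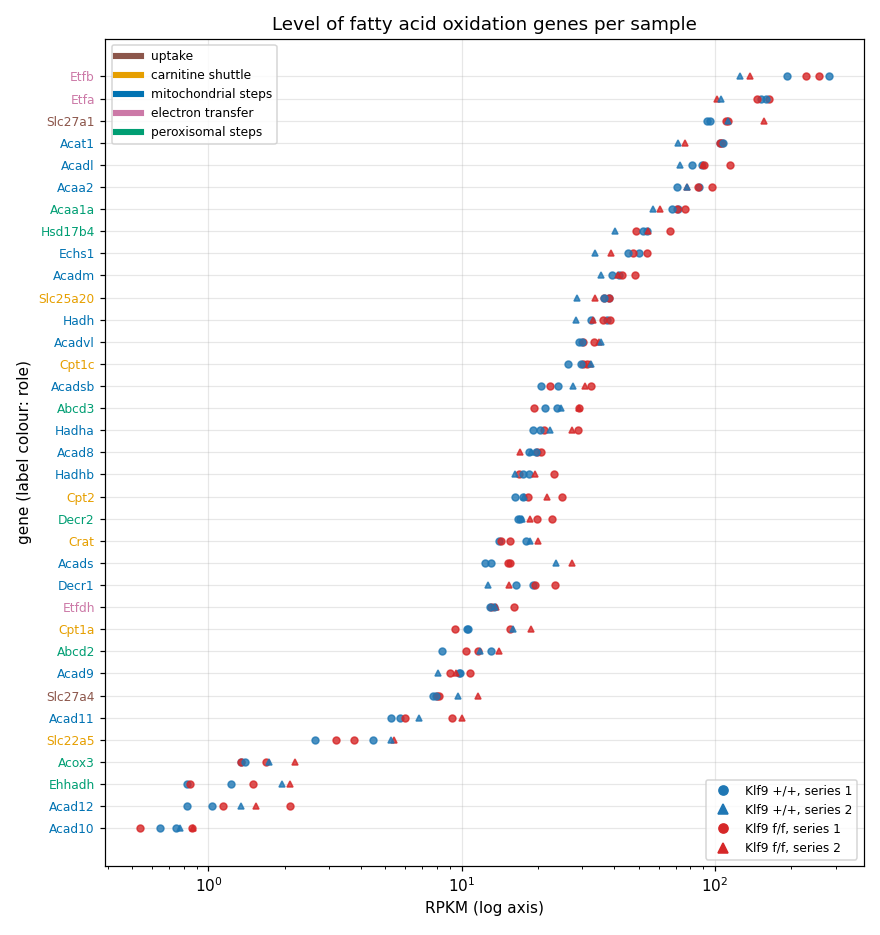
Level in RPKM on a log axis (x) of each of the 35 tested genes (y axis, ordered by the Klf9 +/+ mean, names coloured by role), with 1 point a sample. Etfb, Etfa, Slc27a1 and Acat1 lie at the top, Acad12 and Acad10 at the bottom, and the genotypes overlap for most genes.

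Fatty acid uptake was represented by Slc27a1 and Slc27a4, which encode fatty acid transport proteins that also activate long chains to their CoA esters. Slc27a1 (ENSMUSG00000031808, mm9 chromosome 8, 74092826 to 74110607, plus strand) measured 268, 260.2 and 314 CPM in Klf9 +/+ replicates 1 to 3 and 308, 316 and 436 CPM in Klf9 f/f. Both Klf9 f/f samples of series 1 and the one of series 2 exceeded the Klf9 +/+ samples of their own series. Its log2 fold change was 0.32 (SE 0.13, 95% interval 0.03 to 0.61, unadjusted p = 0.0342 and adjusted p = 1.00 in edgeR), and the difference was 0.24 in series 1 and 0.47 in series 2. The call was lost in 8 of 15 other settings, although the direction held in all. Slc27a4 measured 33.9, 34.9 and 42.8 CPM in Klf9 +/+ and 35.8, 35.4 and 51.4 CPM in Klf9 f/f. The Klf9 f/f samples were again the higher ones within each series, by little in series 1, and the log2 fold change of 0.12 (SE 0.13) was smaller than its standard error.

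The carnitine shuttle carries long chains across the inner mitochondrial membrane. Carnitine palmitoyltransferase 1, at the outer membrane, commits fatty acids to oxidation and has 3 isoforms: the liver form Cpt1a, the muscle form Cpt1b and the brain form Cpt1c, which lies in the endoplasmic reticulum and has little transferase activity. Cpt1a (chromosome 19, 3323301 to 3385732, plus strand) measured 45.2, 45.5 and 68.6 CPM in Klf9 +/+ and 66.9, 40.7 and 80.7 CPM in Klf9 f/f. Klf9 f/f replicate 1 lay above and replicate 2 below both Klf9 +/+ samples of series 1, so the groups overlapped, and the log2 fold change was 0.24 (SE 0.18, 95% interval -0.17 to 0.65). With the astrocyte markers in the fit it was -0.073.

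Cpt1c (chromosome 7, 52214743 to 52230184, minus strand) measured 72.4, 81.8 and 89.3 CPM in Klf9 +/+ and 86.2, 82.7 and 88.6 CPM in Klf9 f/f, with overlapping groups and a log2 fold change of 0.08 (SE 0.13, 95% interval -0.20 to 0.37). Per kilobase, Cpt1c exceeded Cpt1a in every sample, by 2.03 to 2.80 times in Klf9 +/+ and by 1.71 to 3.17 times in Klf9 f/f. The muscle form was close to absent from the counts. Cpt1b (chromosome 15, 89246836 to 89256294, minus strand) had 0, 0 and 7 counts in Klf9 +/+ and 0, 0 and 1 in Klf9 f/f and was not tested. A count of 0 allows up to 3 counts, or 0.0457 to 0.0606 CPM in those 4 samples, for counting error only. Of its 3372 exon bases 81.4% are also annotated to Chkb on the same strand, so HTSeq could assign reads there to neither gene, and its level may be understated.

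Cpt2 (ENSMUSG00000028607, chromosome 4, 107576586 to 107596215, minus strand) regenerates acyl-CoA inside the matrix. It measured 41.6, 38.5 and 41.7 CPM in Klf9 +/+ and 58.9, 43.2 and 51.7 CPM in Klf9 f/f. All 3 Klf9 f/f samples lay above all 3 Klf9 +/+ samples, replicate 2 by the least. The log2 fold change was 0.34 (SE 0.15, 95% interval 0.00 to 0.67, unadjusted p = 0.0497 and adjusted p = 1.00 in edgeR), with 0.33 in series 1 and 0.31 in series 2. This p lay at the edge of the threshold, and the call was lost in 13 of 15 other settings while the direction held in all. The log2 fold change was 0.19 without Klf9 f/f replicate 1 and 0.13 with the astrocyte markers in the fit.

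The remaining shuttle genes had log2 fold changes smaller than their standard errors. Slc25a20, the carnitine-acylcarnitine translocase, Slc22a5, the plasma membrane carnitine transporter, and Crat, carnitine acetyltransferase, had log2 fold changes of 0.08 (SE 0.13), -0.01 (SE 0.22) and -0.03 (SE 0.14). Slc22a5 was the lowest of the 3, at 8.10 to 16.1 CPM in Klf9 +/+ and 9.76 to 16.6 CPM in Klf9 f/f.

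All 17 genes of the mitochondrial steps had a positive log2 fold change, with a median of 0.19. Only Acad11 was called, beside 1.82% of all genes called higher. Within both series Klf9 f/f stood above Klf9 +/+ for 7, beside 7.78% of all genes: Acadl, Acadm, Acads, Acad11, Acad12, Hadha and Decr1. The acyl-CoA dehydrogenases catalyse the first step of each round, and the classical ones divide the chain lengths among themselves. Acadl, for long chains (ENSMUSG00000026003, chromosome 1, 66877413 to 66909851, minus strand), measured 179, 163 and 146 CPM in Klf9 +/+ and 230.5, 181 and 180.1 CPM in Klf9 f/f. Its lowest Klf9 f/f value lay just above its highest Klf9 +/+ value, and the log2 fold change was 0.28 (SE 0.14, 95% interval -0.04 to 0.59, unadjusted p = 0.0767 in edgeR).

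Acadm, for medium chains, measured 123, 115 and 104 CPM in Klf9 +/+ and 142, 126 and 122 CPM in Klf9 f/f, with a log2 fold change of 0.19 (SE 0.12). Klf9 f/f lay above Klf9 +/+ within each series, while replicate 3 of Klf9 f/f lay below replicate 1 of Klf9 +/+. Acads, for short chains, measured 28.2, 29.6 and 53.7 CPM in Klf9 +/+ and 34.6, 35.4 and 61.9 CPM in Klf9 f/f. Here series 2 stood far above series 1 in both genotypes, and the log2 fold change between genotypes was 0.25 (SE 0.12, unadjusted p = 0.0683 in edgeR). Acadvl, the very-long-chain enzyme, had a log2 fold change of 0.07 (SE 0.12), and 42.9% of its exon bases overlap Dvl2 on the opposite strand, which counting without strand cannot separate.

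Acad11 and Acad12 are less studied dehydrogenases, and their log2 fold changes were the largest of the list in the main fit of all 6 samples. Without Klf9 f/f replicate 1, Slc27a1 ranked first at 0.35. With the astrocyte markers in the fit Decr2 did at 0.36, and with the choroid plexus markers Ehhadh did at 0.81. Acad11 acts mainly on very long chains (ENSMUSG00000090150, chromosome 9, 103942992 to 104029976, plus strand). It measured 22.7, 21.0 and 27.1 CPM in Klf9 +/+ and 36.6, 23.9 and 40.0 CPM in Klf9 f/f. Klf9 f/f replicates 1 and 3 stood above every Klf9 +/+ sample, whereas replicate 2 exceeded only the Klf9 +/+ samples of its own series. The log2 fold change was 0.50 (SE 0.18, 95% interval 0.11 to 0.90, unadjusted p = 0.0184 and adjusted p = 1.00 in edgeR), with 0.44 in series 1 and 0.56 in series 2. It was 0.32 and not called without Klf9 f/f replicate 1, and 0.20 and not called with the astrocyte markers in the fit. The call was lost in 8 of 15 other settings. Other genes share 9.8% of its exon bases.

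Acad12 (chromosome 5, 122048293 to 122068947, minus strand) lies beside Acad10 on the same strand. It measured 5.19, 4.12 and 6.72 CPM in Klf9 +/+ and 10.5, 5.73 and 7.70 CPM in Klf9 f/f, from 173 to 690 counts a sample. Klf9 f/f replicate 1 was the highest of the 6 samples, and the log2 fold change was 0.61 (SE 0.28, 95% interval -0.03 to 1.24, unadjusted p = 0.0588 in edgeR), with 0.74 in series 1 and 0.19 in series 2. It was 0.26 without Klf9 f/f replicate 1 and 0.20 with the astrocyte markers in the fit. Its neighbour Acad10, at 3.25 to 5.29 CPM over all samples, had a log2 fold change of 0.07 (SE 0.26). Acadsb, for short branched chains, Acad9, an assembly factor of respiratory complex I as well, and Acad8, an enzyme of valine breakdown, had log2 fold changes of 0.25 (SE 0.16), 0.09 (SE 0.13) and 0.01 (SE 0.13).

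**Figure D4:**
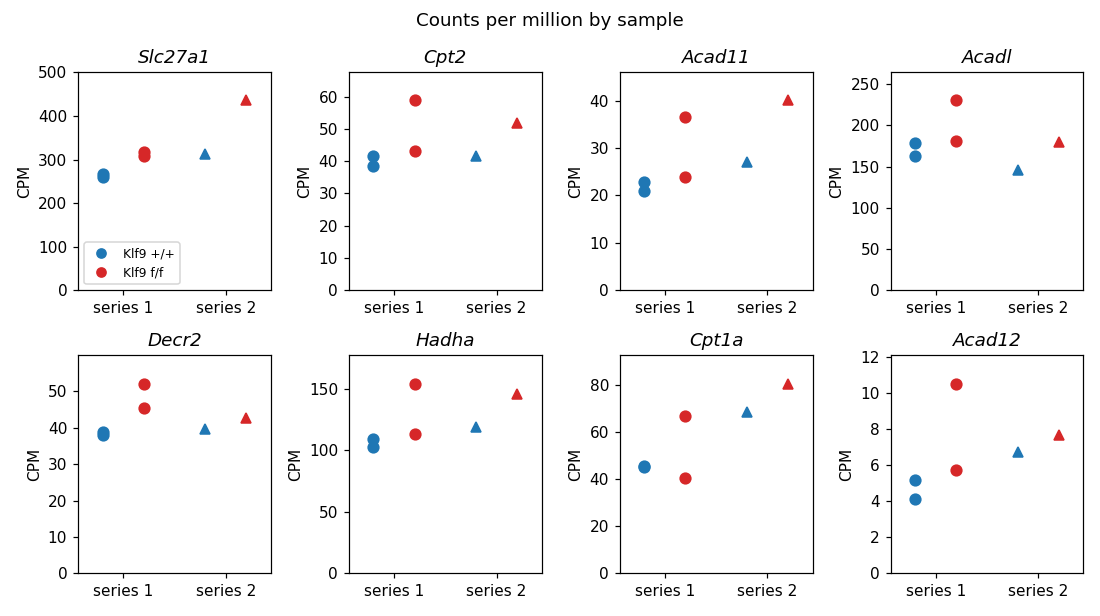
CPM (y axis, from 0) in each sample for 8 genes, by library series (x axis), blue for Klf9 +/+ and red for Klf9 f/f. For Slc27a1, Cpt2, Acad11, Acadl, Decr2, Hadha and Acad12 red lies above blue within both series, and for Cpt1a a red point of series 1 lies below the blue ones.

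The mitochondrial trifunctional protein carries out the later steps on long chains, with the hydratase and the dehydrogenase in its alpha subunit, Hadha, and the thiolase in its beta subunit, Hadhb. Their genes lie head to head on chromosome 5, Hadha on the minus strand (ENSMUSG00000025745, 30444841 to 30481702) and Hadhb on the plus strand (ENSMUSG00000059447, 30481788 to 30511133). Hadha measured 102, 109 and 119 CPM in Klf9 +/+ and 154, 113 and 145 CPM in Klf9 f/f. Each Klf9 f/f sample exceeded the Klf9 +/+ samples of its series, replicate 2 by the least, and the log2 fold change was 0.32 (SE 0.15, 95% interval -0.01 to 0.65, unadjusted p = 0.0571 in edgeR). Hadhb measured 122, 116 and 107 CPM in Klf9 +/+ and 153, 111 and 128 CPM in Klf9 f/f. Klf9 f/f replicate 2 lay below both Klf9 +/+ samples of series 1, and the log2 fold change was 0.19 (SE 0.15, 95% interval -0.15 to 0.52). The Hadha to Hadhb ratio per kilobase was 1.19 ± 0.169 (SD, n = 3) in Klf9 +/+, against 1.30 ± 0.0879 (SD, n = 3) in the Klf9 f/f samples, and the samples overlapped.

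The short interval between the starts of Hadha and Hadhb is shown because both genes begin at its ends, together with the promoters of the called genes Cpt2 and Acad11, which match single RefSeq entries. The first is from mm9 (chr5:30481703-30481787, plus strand, 85 bases). The other 2 are the 250 bases before the RefSeq start in GRCm38.p6, at chr4:107923590-107923839 (minus strand) for Cpt2 and chr9:104063474-104063723 (plus strand) for Acad11. Capitals mark matches on either strand to the GT box CACCC, the GC box GGGCGG and the CCAAT box CCAAT, of which the first 2 are motifs that Kruppel-like factors are known to recognise.
Hadha-Hadhb: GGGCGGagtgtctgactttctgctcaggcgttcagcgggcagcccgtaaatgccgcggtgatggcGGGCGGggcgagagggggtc
Cpt2: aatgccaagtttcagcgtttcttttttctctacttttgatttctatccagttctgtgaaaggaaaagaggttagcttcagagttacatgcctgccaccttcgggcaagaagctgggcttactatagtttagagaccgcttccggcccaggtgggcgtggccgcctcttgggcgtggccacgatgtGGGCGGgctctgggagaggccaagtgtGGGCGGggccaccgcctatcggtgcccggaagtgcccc
Acad11: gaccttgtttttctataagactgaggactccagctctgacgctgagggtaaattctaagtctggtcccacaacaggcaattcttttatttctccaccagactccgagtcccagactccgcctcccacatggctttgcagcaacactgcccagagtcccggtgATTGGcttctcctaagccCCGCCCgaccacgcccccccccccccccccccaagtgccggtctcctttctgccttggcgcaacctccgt

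The Hadha-Hadhb interval and the Cpt2 window hold 2 GC boxes each, and the Acad11 window holds 1 GC box and 1 CCAAT box. Each of them holds 0 GT boxes. Slc27a1, the other called gene, has several RefSeq starts, and its windows are not shown. They hold 7, 3 and 2 GT boxes and 0, 1 and 3 GC boxes. In windows of 250 bases, 32.7% of all 32851 RefSeq promoters hold the GC box, 33.8% the CCAAT box and 52.0% the GT box, and in the last 85 bases before the start 22.8% hold the GC box. Such matches are frequent, and describe the letters only.

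Of the other enzymes of the spiral, Decr1, which handles double bonds of unsaturated chains, measured 74.1, 63.6 and 49.4 CPM in Klf9 +/+ and 90.7, 75.8 and 59.4 CPM in Klf9 f/f. Within each series Klf9 f/f was the higher, while series 2 was the lower series in both genotypes, and the log2 fold change was 0.27 (SE 0.14, unadjusted p = 0.0753 in edgeR). The short-chain hydratase Echs1, the short-chain dehydrogenase Hadh and the thiolase Acaa2 had log2 fold changes of 0.12 (SE 0.13), 0.14 (SE 0.13) and 0.14 (SE 0.14). Acat1, an acetyl-CoA acetyltransferase of ketone and isoleucine metabolism, had the highest mean of the mitochondrial steps per kilobase, with 394, 404 and 269.6 CPM in Klf9 +/+ and 396, 402 and 286 CPM in Klf9 f/f. Its genotypes overlapped in series 1, and its log2 fold change was 0.03 (SE 0.12).

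The 3 electron transfer genes, of which Etfa and Etfb led the list per kilobase while Etfdh ranked 25, had log2 fold changes between the genotypes smaller than their standard errors. Etfa and Etfb encode the subunits of the electron transfer flavoprotein, which takes electrons from the dehydrogenases, and Etfdh the oxidoreductase that hands them to ubiquinone. Etfa (chromosome 9, 55302315 to 55360050, minus strand) measured 279.6, 292 and 194 CPM in Klf9 +/+ and 269.7, 299.7 and 187 CPM in Klf9 f/f, with a log2 fold change of -0.02 (SE 0.13, 95% interval -0.30 to 0.26). Etfb (chromosome 7, 50699478 to 50713170, plus strand) measured 322, 219 and 143 CPM in Klf9 +/+ and 261, 293 and 157 CPM in Klf9 f/f, with a log2 fold change of 0.07 (SE 0.16, 95% interval -0.30 to 0.44). In both genes the samples of series 2 were the lowest and the genotypes overlapped. The Etfb to Etfa ratio per kilobase was 1.42 ± 0.378 (SD, n = 3) in Klf9 +/+. It overlapped with that of the Klf9 f/f samples, which ran from 1.35 to 1.58. Etfdh (chromosome 3, 79407710 to 79432785, minus strand) was even across samples, at 90.9, 88.0 and 91.4 CPM in Klf9 +/+ and 109, 88.4 and 92.7 CPM in Klf9 f/f, with a log2 fold change of 0.10 (SE 0.13, 95% interval -0.20 to 0.40).

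The peroxisomal genes had 7 of 7 positive log2 fold changes, with a median of 0.16. All 7 had a positive difference in both series, beside 29.3% of all genes, but 0 were called, beside 1.82% called higher. Decr2, the peroxisomal dienoyl-CoA reductase (ENSMUSG00000036775, chromosome 17, 26218156 to 26227274, minus strand), measured 38.8, 38.1 and 39.6 CPM in Klf9 +/+ and 45.5, 52.1 and 42.7 CPM in Klf9 f/f. The Klf9 +/+ samples lay within a narrow band below all Klf9 f/f samples, and replicate 2 was here the highest of the Klf9 f/f samples. The log2 fold change was 0.27 (SE 0.13, unadjusted p = 0.0741 in edgeR), with 0.34 in series 1 and 0.11 in series 2.

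Hsd17b4, the D-bifunctional protein of the hydration and second oxidation, had a log2 fold change of 0.22 (SE 0.15), with 0.11 in series 1 and 0.43 in series 2. Acox3, an oxidase of branched chains, and Ehhadh, the L-bifunctional protein, were low, at 13.9 to 22.8 and 2.48 to 6.36 CPM over all samples, with log2 fold changes of 0.21 (SE 0.16) and 0.16 (SE 0.29). The transporters Abcd2 and Abcd3, which bring acyl-CoA into peroxisomes, had log2 fold changes of 0.11 (SE 0.18) and 0.15 (SE 0.17), and the thiolase Acaa1a had 0.08 (SE 0.12). None of these 6 separated by genotype within both series.

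Library series 1 and 2 also differed, for members about as often as for all genes or less. Of the 35 tested, 7 were called higher in series 2 (Slc27a1, Slc27a4, Cpt1a, Slc22a5, Acads, Acox3 and Ehhadh), beside 20.7% of all genes, and 5 were called lower (Echs1, Decr1, Acat1, Etfa and Etfb), beside 22.4% of all genes. At an adjusted p under 0.05 in edgeR, 3 were higher (Slc27a4, Cpt1a and Acads), beside 12.9% of all genes, and the same 5 lower, beside 16.6% of all genes. Acads rose by 0.86 on the log2 scale (SE 0.13, adjusted p = 0.00443, edgeR) and Etfb fell by 0.87 (SE 0.18, adjusted p = 0.0095, edgeR). Both uptake genes were among those higher in series 2, and both subunits of the electron transfer flavoprotein among those lower. Without either replicate 3, 0 members passed that adjusted p in either direction. Without replicate 3 of Klf9 f/f the counts at the 1.2-fold threshold were 1 higher and 3 lower, and without replicate 3 of Klf9 +/+ 2 and 2. The genotypes are balanced within each series, and the series entered the genotype fit as a term.

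**Figure D5:**
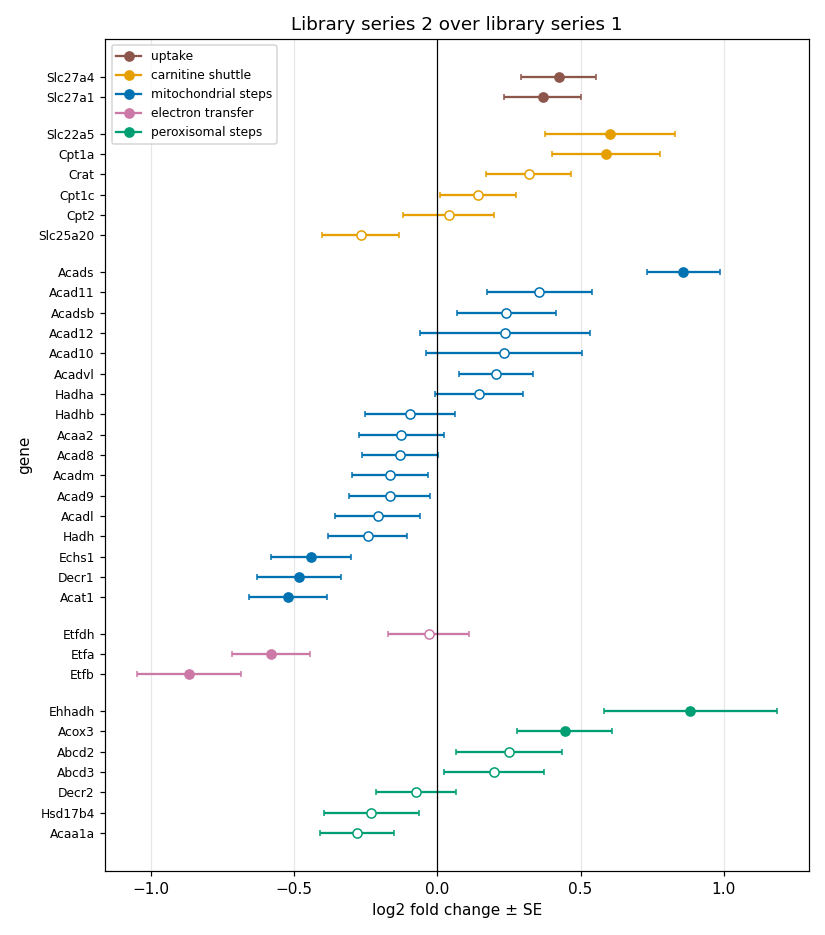
Log2 fold change of library series 2 over series 1 (x axis) for each of the 35 tested genes (y axis), with bars of 1 SE, coloured by role; filled points mark genes at 1.2-fold or more with an unadjusted p under 0.05. Acads and Ehhadh lie farthest right and Etfb and Etfa farthest left.

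Neighbouring pathways were compared between the genotypes in the same way. Of 25 tested accessory genes, such as acyl-CoA thioesterases, enoyl-CoA isomerases and enzymes of ketone metabolism and alpha-oxidation, 22 were positive and the median log2 fold change was 0.11, with 1 gene called, beside 1.82% of all genes. That gene, Hacl1, the 2-hydroxyacyl-CoA lyase of alpha-oxidation, was named after its value was seen (log2 fold change 0.33, SE 0.15, unadjusted p = 0.0495 in edgeR). Of 17 genes of the tricarboxylic acid cycle, which burns the acetyl-CoA, 13 were positive, the median was 0.07, 0 were called, and 1 separated by genotype within both series, beside 7.78% of all genes. Between library series, 9 of those 17 and 12 of the 25 accessory genes were called lower in series 2, beside 22.4% of all genes, and 1 and 2 of them higher, beside 20.7% of all genes.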

How the data were processed

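Ribosome-bound mRNA was measured in 3 Klf9 +/+ and 3 Klf9 f/f samples. By the study's methods the authors mapped reads with STAR to mm9, used HTSeq in unstranded mode, and deposited the raw counts per gene. Each sample pools 3 mice, so p-values measure the spread between pools. Summary lines of HTSeq were left out. Names and exon lengths came from GENCODE M1 (415 genes unnamed). The 15056 genes exceeding 1 CPM in any sample were TMM-scaled and tested with the quasi-likelihood test of edgeR 4.0.16 (R 4.3.3), library series as a term, with 3 residual degrees of freedom. The test moderates the variance of each gene across genes, so its p-values and the intervals rest on more than these 3 degrees of freedom. SE was the log2 fold change divided by the square root of F. Log2 CPM used a prior count of 2. DESeq2 1.42.0, other scalings and filters, samples left out and marker covariates were the alternatives.

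Members and lists were chosen with earlier results of these data known. Every member could be named; per-sample values were given for called members, the 3 highest per kilobase, Acat1 (added after its values were seen), those separating by genotype within both series, and Cpt1a, Cpt1b, Cpt1c, Hadha, Hadhb, Etfdh and Acad12. Promoter sequences came from RefSeq (GRCm38.p6), where 28 of 36 members matched. Replicate numbers pair no samples.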

Additional observations from a re-analysis of the deposited data

How the results depend on the processing

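No paired analysis was possible because the replicate numbers are running numbers that tie no sample of one genotype to one of the other. Over 15 other settings, no member passed an adjusted p of 0.05 and none was called lower, and Klf9 stayed lower. Of 525 comparisons of a member's log2 fold change with its main value, 444 kept direction and side of the threshold, 29 lost a call, 12 gained one and 40 changed sign, none of them a member called in the main test; 15 of 35 members never changed sign. The number of members called higher, 3 in the main fit (beside 1.82% of all genes), moved with the setting, as did that share. It was 0 without the library series term (0.332%), 5 with no filter on low counts (2.04%) and 1 in series 1 alone (1.12%). As a covariate, the astrocyte markers left 0 (0.89%) and the choroid plexus markers 1 (2.32%). With 1 sample left out it was 0 to 8 (0.866 to 3.28%). Between library series, members higher at an adjusted p under 0.05 (3) numbered 5 with DESeq2, with upper-quartile scaling and with no filter, and 0 to 6 with 1 sample left out; those lower (5) numbered 3 with upper-quartile scaling and 0 to 5 with 1 left out, while the counts at 1.2-fold were 1 to 9 higher and 2 to 6 lower. With the longest transcript as length the median level was 25.4 RPKM and Acat1 passed Slc27a1. The log2 fold change changed sign in series 1 alone for Slc25a20 (-0.0087) and Acat1 (-0.0066); with the astrocyte covariate for Cpt1a (-0.073), Slc22a5 (0.093), Crat (0.089), Acad9 (-0.040), Acad10 (-0.20), Hadhb (-0.037), Etfa (0.058), Etfb (-0.0035), Etfdh (-0.020), Ehhadh (-0.055), Hsd17b4 (-0.0091) and Abcd3 (-0.083); and with the choroid plexus covariate for Slc25a20 (-0.042), Slc22a5 (0.75), Crat (0.26), Hadh (-0.075), Echs1 (-0.054), Acaa2 (-0.040), Etfa (0.036), Etfb (-0.46) and Acaa1a (-0.0046). With 1 sample left out, values that crossed 0 ranged from -0.034 to 0.088 for Acad8, -0.039 to 0.33 for Abcd2, -0.11 to 0.095 for Crat, -0.14 to 0.26 for Acad10, -0.068 to 0.019 for Etfa, -0.0013 to 0.17 for Etfdh, -0.11 to 0.36 for Ehhadh, -0.024 to 0.31 for Abcd3, -0.19 to 0.24 for Slc22a5, -0.069 to 0.25 for Etfb, -0.0095 to 0.12 for Slc25a20 and -0.0076 to 0.043 for Acat1. The cause was not tested. Leaving out a sample of series 2 leaves 1 sample in it. Between series, that sample is assumed to vary like the others. Between genotypes, the series term fits it exactly, so it adds nothing to the comparison. Those fits and series 1 alone thus repeat 1 comparison, and the counts over 15 settings hold it more than once. Depth limits Cpt1b, Acad10, Acad12 and Ehhadh most.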
